A study of Mus musculus with 8 samples.

Results

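The ETS transcription factors described here are 9 genes, *Etv2*, *Fli1*, *Erg*, *Ets1*, *Ets2*, *Etv6*, *Elk3*, *Elf1* and *Gabpa*, measured in 8 single endocardium cells of the mouse embryo. They were chosen by gene name, and every non-control probe that carries one of these names on the array was taken, which gave 16 of 55681 probes. Of these, 15 had a usable spot on all 8 arrays. The endocardium is the endothelial lining of the heart. The cells came from embryos at E8.5 with 9 somites. The 4 WT cells had the genotype Mesp1+/+ with Sox17flox/flox and carried no Cre. The 4 *Sox17* KO cells were Mesp1Cre/+ with Sox17flox/flox, so both genotypes carried the floxed *Sox17* alleles, and the KO cells also had 1 *Mesp1* allele with the Cre insertion. Cre was expressed from the *Mesp1* locus, which is active in early mesoderm, so the deletion is not restricted to the endocardium. Each array held the amplified cDNA of 1 cell, and no label ties a cell to an embryo. Alleles were typed on embryo tails. Neither *Sox17* probe was detected in a cell of either genotype, at scaled intensities of 1.1 to 6.2, so the knockout could not be checked at the target gene.

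Because the cells of a genotype may come from 1 embryo, each genotype counts as 1 sample. No test of WT against KO was possible, and the SD given below is the spread between 4 cells. Differences are given as KO minus WT on a log2 scale of the scaled intensity, in which values under a floor of 50 were set to 50, or 5.64 in log2. A cell in which a probe passed the scanner software's criterion for a signal well above background is called a cell with detection. The number of probes detected was 11370 to 18175 in WT cells and 12781 to 16853 in KO cells, with the lowest number in WT cell 1. All arrays were on 1 slide, with the genotypes in separate slide columns, so slide position and genotype cannot be told apart.

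All ETS factors share a DNA-binding domain, the ETS domain, that recognises sites centred on GGAA, and a great many endothelial enhancers contain such sites. ETV2 acts early and briefly: it is needed for mesoderm to form endothelium and blood, and it is shut off as vessels mature. FLI1, ERG and ETS1 remain in endothelial cells and keep endothelial genes active, ETS2 responds to Ras and MAP kinase signalling, and ELK3 and ETV6 can act as repressors in the vasculature. ELF1 and GABPA are widely expressed. GABPA binds DNA together with its partner GABPB.

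The probes are 60 bases long and read the RNA of a gene at a single place, and the first sequences shown are those where the conserved ETS domain makes probes of different members alike. A probe of *Etv2* at chr7:31418776-31418835 (mm9, minus strand) and a probe of *Ets1* at chr9:32561826-32561885 (mm9, plus strand) both lie in the stretch that codes for this domain, and capitals mark the longest run that they share, 20 bases.
*Etv2* probe A_51_P137560: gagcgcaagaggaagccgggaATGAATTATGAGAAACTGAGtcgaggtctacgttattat
*Ets1* probe A_52_P232830: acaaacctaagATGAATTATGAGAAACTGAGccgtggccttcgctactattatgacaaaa

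In their best overlap without gaps, the probes matched at 37 of 50 bases, or 74.0%. In WT cell 1, where the scaled intensity of the *Etv2* probe was 46247.7, that of this *Ets1* probe was 28.4. The *Ets1* probe stayed between 8.5 and 33.4 in all 8 cells and so did not follow *Etv2*. A further *Etv2* probe lies 857 bases toward the 5′ end of the gene, at chr7:31419633-31419692 (mm9, minus strand). It shares no such run and is shown because it gives *Etv2* a second reading.
*Etv2* probe A_55_P1953588: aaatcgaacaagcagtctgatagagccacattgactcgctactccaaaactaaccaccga

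The cDNA was primed from the poly(A) tail, so the place of a probe relative to the transcript end matters for reading its signal. The polyadenylation hexamer AATAAA, searched as these letters in the sense of each probe, was in 2 of 16 member probes (12.5%) against 10.1% of all probes on the array. The windows that hold it are shown with the hexamer in capitals. The *Elk3* probe is at chr10:92710178-92710237 (mm9, minus strand) and the *Gabpa* probe at chr16:84863822-84863881 (mm9, plus strand).
*Elk3* probe A_55_P2018994: actgttttgctgAATAAAtactttgtaata
*Gabpa* probe A_52_P152283: ttttactctttaAATAAAgacacttatact

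Most of the members were detected, but few of them in every cell. Of the 9 genes, 7 were detected in at least 1 cell and 2, *Fli1* and *Ets2*, in all 8. Over the array, 57.0% of 35560 genes were detected in at least 1 cell and 17.6% in all 8. WT cells 1 to 4 had 4, 5, 5 and 5 members detected, and KO cells 1 to 4 had 5, 4, 5 and 4. The means were 4.75 ± 0.50 (SD, n = 4) in WT and 4.50 ± 0.58 (SD, n = 4) in KO cells, a smaller difference than the spread between cells. With a looser flag of the scanner software, which asks only that a spot be significantly brighter than its background, the order of the means turned, at 5.75 in WT and 6.75 in KO cells. Among the 6 lasting endothelial members (*Fli1*, *Erg*, *Ets1*, *Ets2*, *Etv6* and *Elk3*), the numbers were 3, 4, 4 and 4 in WT and 4, 3, 5 and 3 in KO cells. These means were 3.75 ± 0.50 and 3.75 ± 0.96 (SD, n = 4 each), or 4.25 and 5.25 with the looser flag.

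**Figure D1:**
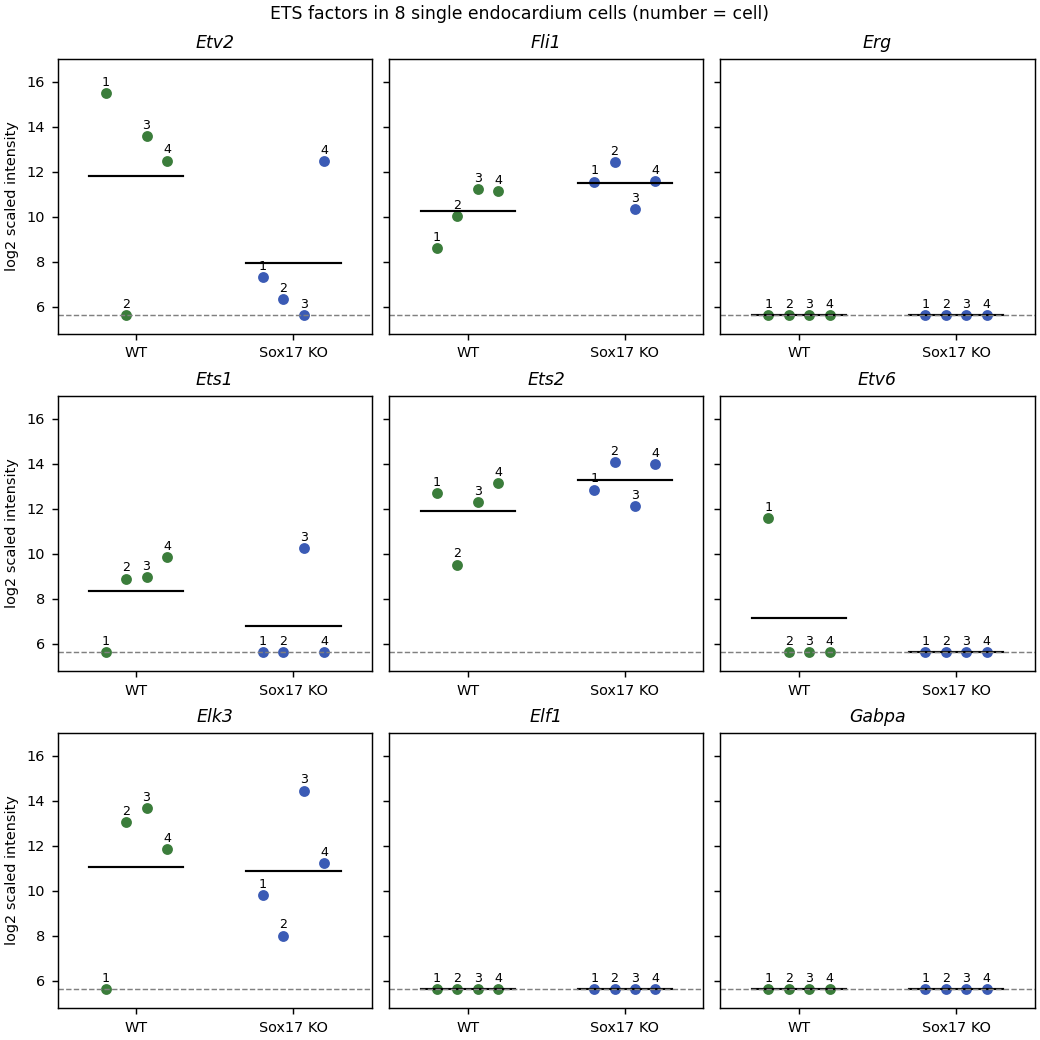
Log2 scaled intensity of the 9 ETS factors in 4 WT (green) and 4 *Sox17* KO (blue) cells. Each point is 1 cell with its number, bars are the means of 4 cells, and the dashed line is the floor of 5.64. *Fli1* and *Ets2* are above the floor in all 8 cells, *Elk3* in all but WT cell 1, *Etv2* and *Ets1* in some cells of each genotype, *Etv6* in WT cell 1 only, and *Erg*, *Elf1* and *Gabpa* in none.

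Of the members, each read by its probe with the highest mean, only *Etv2*, the early factor, was at least 5-fold apart between the genotype means. Its log2 values were 15.50, 5.64, 13.58 and 12.49 in WT cells 1 to 4. In KO cells 1 to 4 they were 7.31, 6.35, 5.64 and 12.46. The genotypes overlapped, since WT cell 2 was at the floor and KO cell 4 was as high as WT cell 4. By the scanner's criterion *Etv2* was detected in 4 of 4 WT cells, with WT cell 2 at a scaled intensity of only 18.6, and in 3 of 4 KO cells. KO cell 3, at 2.3, was the cell without detection. The means were 11.80 ± 4.29 in WT and 7.94 ± 3.09 in KO cells (SD, n = 4 each), a difference of -3.86 (pooled SD 3.74), or 14.6-fold lower in KO. The difference was thus about as large as the spread between cells of 1 genotype. It was -5.92 without WT cell 2, -5.37 without KO cell 4 and -2.63 without WT cell 1.

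The second *Etv2* probe gave 14.27, 5.64, 12.22 and 11.31 in WT cells 1 to 4, against 6.22, 5.64, 5.64 and 11.56 in KO cells 1 to 4. Its difference was -3.59 (pooled SD 3.31). The cells fell in nearly the same order with both probes, with Pearson's r of 0.98 over 8 cells on values without the floor. Steps between cells were also alike: WT cell 1 was above WT cell 4 by 3.01 with the first probe and by 2.97 with the second. Both probes read the same amplified cDNA of each cell, so they show the precision of the array reading and not that of the cell's RNA.

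Over all 20274 genes detected in at least 1 cell, 3.24% were at least 5-fold lower and 3.22% at least 5-fold higher in KO than in WT cells. Of the 9 members 1 was lower by this measure and 0 were higher. In either direction, 6.46% were at least 5-fold apart. All KO cells lay above all WT cells for 1.13% of these genes and below them for 0.247%, together 1.38%, and for 0 of the 9 members. The median difference was 0.00 over the members and 0.00 over all detected genes.

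*Fli1* and *Ets2* were the members above the floor in all 8 cells. *Fli1*, which holds endothelial and blood progenitor programmes in place, was at 8.60, 10.03, 11.22 and 11.13 in WT cells 1 to 4. In KO cells 1 to 4 it was at 11.56, 12.43, 10.33 and 11.59. KO cell 3 lay among the WT cells and the other KO cells lay above all of them. The means were 10.24 ± 1.22 and 11.48 ± 0.87 (SD, n = 4 each), and the difference of 1.23 (pooled SD 1.06) was close to the spread between cells. Without WT cell 1 it was 0.68, and with quantile normalization of the arrays it was 0.65.

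*Ets2* gave 12.70, 9.52, 12.28 and 13.14 in WT cells 1 to 4. The values in KO cells 1 to 4 were 12.85, 14.08, 12.10 and 13.99. WT cell 2 was the lowest cell by a wide margin, and the others overlapped between the genotypes. The means were 11.91 ± 1.63 and 13.26 ± 0.95 (SD, n = 4 each), with a difference of 1.35 (pooled SD 1.34) that was 0.55 without WT cell 2 and 0.89 with quantile normalization.

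*Ets1*, a partner of *Fli1* and *Erg* in endothelial gene control, was detected in 3 WT cells and 1 KO cell with its probe nearer the 3′ end of the gene (chr9:32564860-32564919, mm9, plus strand). Its log2 values were 5.64, 8.90, 8.95 and 9.86 in WT cells 1 to 4, against 5.64, 5.64, 10.25 and 5.64 in KO cells 1 to 4. The highest cell of all was KO cell 3. The difference of -1.54 (pooled SD 2.09) was smaller than the spread between cells, and it was -2.69 without KO cell 3, -2.44 without WT cell 1 and -1.03 without WT cell 4. It also moved with the floor, to -0.54 with a floor of 200, -2.70 with a floor of 10 and -3.22 with none, and was -0.77 as the mean of both probes. The probe in the ETS domain, 3034 bases toward the 5′ end, was detected in all 8 cells but under the floor in each. Before the floor, its scaled intensities of 8.5 to 33.4 ran opposite to those of the 3′ probe (r = -0.76 over 8 cells). The part of the array scaling in this r was not tested.

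*Elk3*, a ternary complex factor that works with SRF and represses targets until it is phosphorylated, gave different patterns with its 3 probes. The probe with AATAAA was at 5.64, 13.06, 13.68 and 11.84 in WT cells 1 to 4. In KO cells 1 to 4 it was at 9.81, 8.01, 14.45 and 11.23. Cells of both genotypes were spread over most of this range, with the highest in KO cell 3 and the lowest in WT cell 1. The difference was -0.18 (pooled SD 3.24). Leaving out 1 cell at a time moved it from -1.98 without WT cell 1 to 0.77 without KO cell 2, so it has no direction.

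The *Elk3* probe A_55_P1972927 lies 1919 bases toward the 5′ end, at chr10:92712097-92712156 (mm9, minus strand). It is on the study's list of genes decreased in KO endocardium, which was drawn from these same cells, so its values are a description and no independent evidence of a direction. It was at 8.53, 9.82, 6.62 and 11.22 in WT cells 1 to 4 and at 5.64, 5.64, 7.82 and 7.04 in KO cells 1 to 4. WT cell 3 was below KO cells 3 and 4, so the genotypes overlapped. The means were 9.05 ± 1.96 and 6.54 ± 1.08 (SD, n = 4 each), a difference of -2.51 (pooled SD 1.58), or 5.70-fold lower in KO. It was under 5-fold without WT cell 4 (-1.78), WT cell 2 (-2.25), KO cell 1 (-2.21) or KO cell 2 (-2.21), and with a floor of 200 (-1.62), normexp background correction (-2.05) or the floor set before scaling (-2.30).

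Across the 8 cells the *Elk3* probes hardly moved together, with r = 0.21 between these probes. In KO cell 3 the probe with AATAAA was the highest of all cells at 14.45, and the listed probe was at 7.82. In WT cell 1 the former was at the floor and the latter, at 8.53, above its values in all 4 KO cells. The last *Elk3* probe, which lies between them, had scaled intensities of at most 54.6 and a difference of -0.03. The size of the *Elk3* difference between the genotypes therefore depended on the probe read. The probe positions are known only as genome coordinates here, and which exon of which transcript each covers was not analysed.

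**Figure D2:**
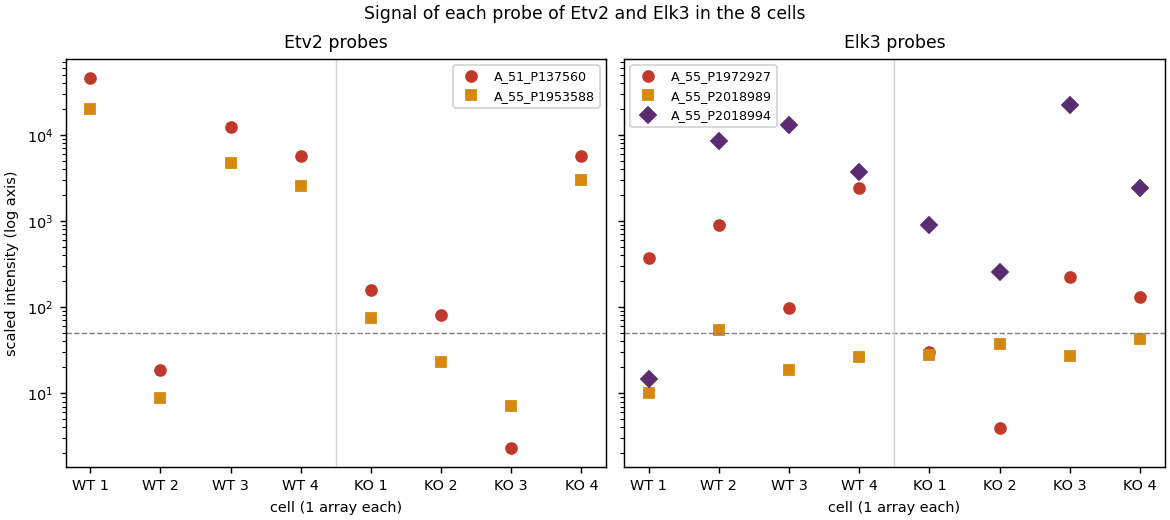
Scaled intensity, on a log axis and without the floor, of the 2 *Etv2* probes and the 3 *Elk3* probes in each of the 8 cells. The dashed line is the floor of 50. The *Etv2* probes rank the cells nearly alike, from 46247.7 in WT cell 1 to 2.3 in KO cell 3 for the first, whereas the *Elk3* probes A_55_P2018994 and A_55_P1972927 follow different patterns (r = 0.21 with the floor).

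*Etv6*, a repressor needed for the yolk sac vessels, was high in WT cell 1 alone, at 11.58, and did not exceed 50 in scaled intensity elsewhere. It was also detected in KO cell 3 at a scaled intensity of 31.0. The difference of -1.48 (pooled SD 2.10) was 0.00 without WT cell 1, -0.98 with a floor of 200, -0.68 with normexp background correction and -0.30 with no floor. *Erg*, a major endothelial ETS factor, was not above the floor in any cell with either of its probes. One of them was detected in KO cell 1, at 42.4. *Elf1* was not detected in any cell, and its 2 probes are annotated on different chromosomes, at chr14:79981995-79982054 and chr3:115647125-115647184 (mm9, plus strand both). No fold is given for *Erg*, *Elf1* or *Gabpa*.

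*Gabpa* was not detected with the probe that was usable on all arrays. Its other probe, the one with AATAAA shown above, was left out because its spot was marked as non-uniform in KO cell 1. That probe was detected in WT cell 4 at 73.6, in KO cell 3 at 776.4 and in KO cell 4 at 64.9, and the marked spot in KO cell 1 read 1433.5. In the remaining cells it was at 1.3 to 5.4. The *Gabpa* probes thus gave different answers on which cells had the transcript.

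Set beside each other in the same cell, the early and the lasting factors did not fall into a common order. WT cell 1 had the highest *Etv2* of the 8 cells and the lowest *Fli1*, with *Ets1* and the 3′ probe of *Elk3* at the floor. It was also the only cell with *Etv6* above the floor, and the cell with the fewest probes detected. KO cell 3 had *Etv2* at the floor, the highest *Ets1* and *Elk3*, and the lowest *Fli1* of the KO cells. WT cells 3 and 4 had high *Etv2* together with *Fli1*, *Ets1*, *Ets2* and *Elk3* all well above the floor. The part that the number of detected probes plays in these values was not tested.

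Neither a common rise nor an exchange of *Etv2* for the lasting factors held over all cells. With both genotypes pooled (8 cells), Pearson's r of *Etv2* was -0.31 with *Fli1*, -0.17 with *Ets1*, -0.32 with *Elk3* and 0.34 with *Ets2*. Among the lasting factors it was 0.80 between *Ets1* and *Elk3* and 0.52 between *Fli1* and *Ets2*. Differences between the genotype means enter each r, and r within a genotype was not computed. These values therefore do not show how the factors went together within a genotype. *Ets1* and *Elk3* were both above the floor in 4 cells, WT cells 2 to 4 and KO cell 3, which were the 4 highest in *Elk3*. Of these, WT cells 2 and 4 and KO cell 3 had the most probes detected of all cells, while WT cell 3 had fewer than KO cell 4. The part of detection in this r was not tested. The points share the amplification and the scaling of each cell, and the order of cells at the floor is unknown. *Fli1* and *Ets1* are neighbours on chromosome 9, with their probes 332 kb apart and 0 protein-coding genes between them, yet r was -0.16. *Erg* and *Ets2* are likewise neighbours on chromosome 16, with probes 360 kb apart and 0 protein-coding genes between, and *Ets2* was detected in all 8 cells where *Erg* was at the floor throughout.

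**Figure D3:**
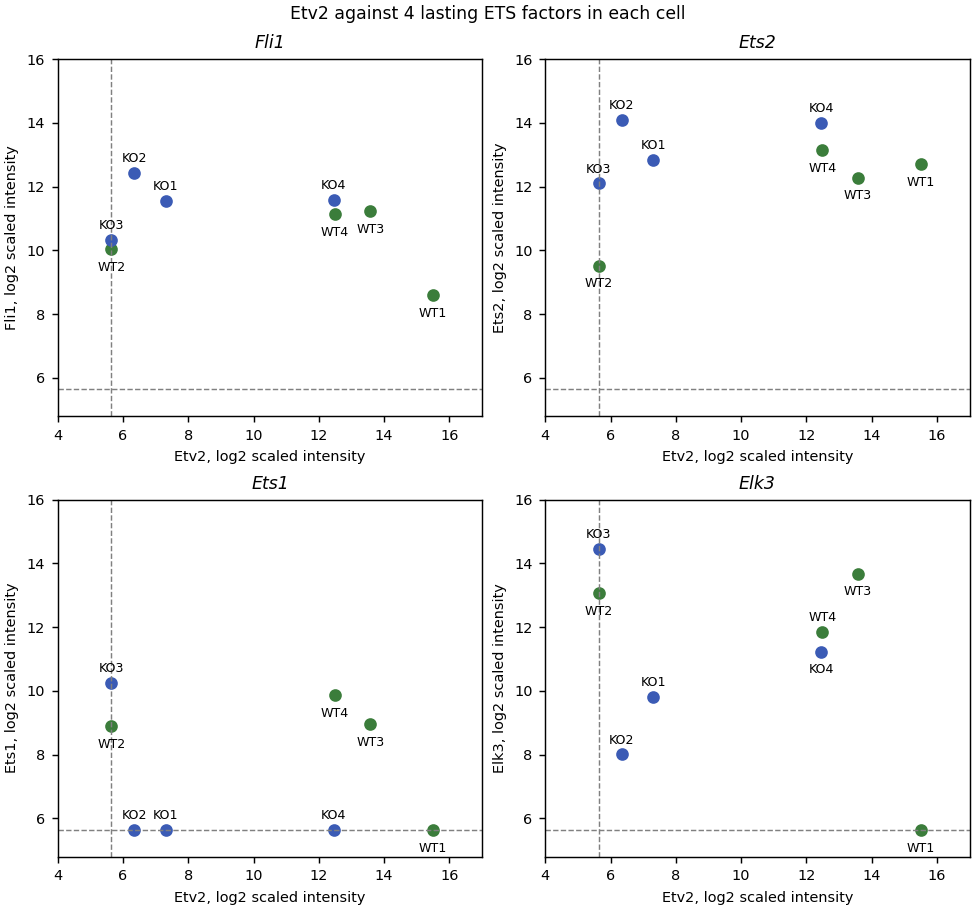
Log2 scaled intensity of *Etv2* (x axis) against *Fli1*, *Ets2*, *Ets1* and *Elk3* (y axes) in 4 WT (green) and 4 *Sox17* KO (blue) cells, labelled by genotype and number. Dashed lines mark the floor of 5.64. WT1 is far right in each panel, with the lowest *Fli1*, and KO3 and WT2 are at the *Etv2* floor with high *Elk3*.

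The spread between cells was wide for *Etv2*. Its pooled SD of 3.74 within genotypes was exceeded by 3.13% of the 11863 genes detected in at least 4 cells, against 9.35% for the 3′ probe of *Elk3* with 3.24. *Fli1*, with 1.06, was near the middle, with 46.8% of genes wider. The median over these genes was 0.93. The SD depends on the floor and on how bright a probe is, so it ranks the readings and not the biology of the genes.

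**Figure D4:**
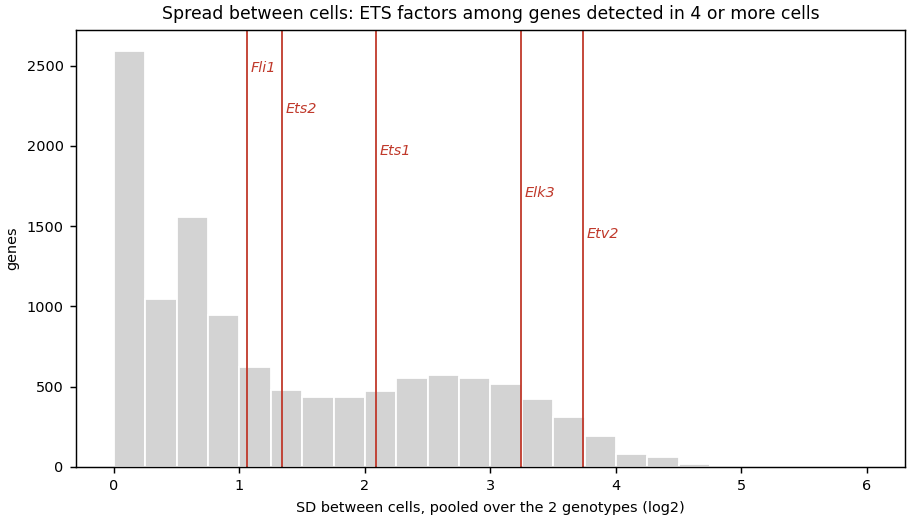
Histogram of the SD between cells, pooled over the 2 genotypes (log2), for 11863 genes detected in at least 4 of 8 cells. Red lines mark the 5 ETS factors of this set that were above the floor in at least 3 cells, with *Fli1* at 1.06 near the middle and *Etv2* at 3.74 toward the right end.

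The cells carried endothelial RNA, and several also carried RNA of muscle genes. All 8 of the endothelial markers were detected in at least 1 cell, and *Pecam1*, *Cdh5* and *Kdr* in all 8. Their summed scaled intensity was 9075 to 33744 in WT and 6791 to 71962 in KO cells. All 9 cardiomyocyte markers were detected in at least 1 cell, with sums of 370.3 to 46258 in WT and 1010 to 48736 in KO cells. The highest sums were in WT cell 2, KO cell 1 and KO cell 4, at 46258, 48736 and 28950. These exceeded the endothelial sums of the same cells, 9075, 6791 and 10700, whereas in the other cells the endothelial sum was higher. *Pecam1* was at the floor in WT cell 2 and at 5.66 in KO cell 1. *Cdh5* was at 12.29 and 9.50 in these 2 cells, and *Kdr* at 10.67 and 11.80. WT cell 2 and KO cell 1 were low in *Etv2* and KO cell 4 was high, and WT cell 2 had the lowest *Ets2*. WT cell 2 and KO cell 4 also had the smooth muscle marker *Acta2* at 13.80 and 12.86. Of the 4 smooth muscle markers 2 were detected in all 8 cells and 2 in none, with sums of 68.3 to 14377 in WT and 58.6 to 7726 in KO cells. Of the 9 blood markers 6 were not detected, *Gata1*, *Klf1* and *Ptprc* among them, and the sums were 20.5 to 200.1 in WT and 29.1 to 50.1 in KO cells. None of the 6 endoderm markers was detected, with sums of 7.5 to 26.6 and 11.2 to 26.4. The study assigned the cell type by PCR of marker genes, so endothelial markers may have served in choosing these cells. The part of the muscle RNA in the ETS values was not tested.

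Of the 17 other ETS family genes on a list of the family, 6 were detected in all 8 cells (*Etv4*, *Etv5*, *Erf*, *Elk1*, *Elk4* and *Fev*) and 5 in none (*Elf3*, *Elf4*, *Elf5*, *Spib* and *Spic*). Although detected, *Etv4*, *Erf*, *Elk4* and *Fev* were at the floor in most cells and reached at most 7.41. *Elk1*, a ternary complex factor like *Elk3*, was at 16.22 to 17.64 in WT and 16.74 to 17.40 in KO cells, while its other probe was not detected. Of the 17, only 1 was at least 5-fold lower in KO, against 3.24% of all detected genes. This was *Elf2*, which had the largest difference, -2.44 (pooled SD 1.29). It was at 5.64, 8.54, 8.86 and 9.86 in WT cells 1 to 4 and at 5.64, 5.64, 5.96 and 5.90 in KO cells 1 to 4. The genotypes overlapped through WT cell 1 only, and without WT cell 3 or WT cell 4 the difference was under 5-fold, at -2.23 and -1.90. *Etv1* was 2.01 higher in KO (pooled SD 2.50), a value that KO cell 4 alone set at 12.94 and that was 0.25 without it. *Erf* differed by -0.62 (pooled SD 0.59). The median over the 17 was 0.00, a value fixed by the floor. Most of the list was at the floor in all 8 cells (*Etv3*, *Elf3*, *Elf4*, *Elf5*, *Ehf*, *Spi1*, *Spib*, *Spic* and *Spdef*).

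ETS factors act with cofactors and are switched by MAP kinases. Of 12 partners and corepressors, *Crebbp*, an acetyltransferase coactivator, was detected in all 8 cells, and *Gabpb2* and *Ep300* in none. *Srf*, the partner of ELK3, differed by 1.83 (pooled SD 2.82) and *Sin3a* by -1.57 (pooled SD 2.22).

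Among 4 MAP kinases, *Mapk3* and *Map2k2* were detected in all 8 cells. *Mapk3*, which encodes ERK1, was at 6.14, 9.64, 12.17 and 12.17 in WT cells 1 to 4, against 13.34, 14.89, 13.80 and 11.44 in KO cells 1 to 4. The genotypes overlapped through KO cell 4. The difference was 3.34 (pooled SD 2.26), or 2.04 and so under 5-fold without WT cell 1, and its second probe differed by 2.95. *Map2k1* differed by -0.75 (pooled SD 3.03).

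Endothelial genes with known ETS-bound enhancers were mostly present in both genotypes. Of 20 such genes, 9 were detected in all 8 cells, *Kdr*, *Cdh5*, *Pecam1*, *Eng*, *Egfl7*, *Esam*, *Icam2*, *Cd34* and *Sox18*, and 2, *Robo4* and *Mef2c*, in none. *Nrp1*, a co-receptor of VEGF, was at 10.24, 5.64, 11.89 and 9.30 in WT cells 1 to 4 and at the floor in all 4 KO cells, with 1 KO cell detected. Its difference was -3.63 (pooled SD 1.87). *Cd34*, a surface sialomucin of endothelial and progenitor cells, was at 6.09, 13.35, 13.23 and 13.63 in WT cells and at 13.95, 15.23, 14.72 and 14.82 in KO cells 1 to 4. The genotypes did not overlap with this probe, and the difference of 3.10 (pooled SD 2.61) was 1.27 without WT cell 1. The second *Cd34* probe was detected in 0 WT cells and 1 KO cell and differed by 0.19. *Esam* differed by 2.28 (pooled SD 2.47). Of the 20 genes, 1 was at least 5-fold higher and 1 lower in KO, against 3.22% and 3.24% of all detected genes. *Cd34* was the only 1 without overlap, against 1.38% of all detected genes. The median of the list was 0.00, which was the value of *Robo4* and *Mef2c*, at the floor in all cells.

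In WT cell 1, the cell with the most *Etv2* and the least *Fli1*, these endothelial genes were split. The examples were picked after the values were seen. *Egfl7* and *Eng* were highest there among the 8 cells, at 16.40 and 14.30. *Icam2* and *Cd34* were lowest there, at 6.38 and 6.09, with the other 7 cells at 10.92 to 15.63 and 13.23 to 15.23. *Tie1* was at the floor in this cell and at 10.30 to 11.63 in the other 7.

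Of 8 genes that act upstream of or together with *Etv2* in blood and endothelial progenitors, *Ovol2* was detected in all 8 cells and *Mesp1* and *Runx1* in none. *Lmo2* differed by 1.59 (pooled SD 2.25), *Gata2* by -1.49 (pooled SD 3.62) and *Tal1* by -1.05 (pooled SD 3.79), each less than its spread between cells. None of the 8 was 5-fold apart, against 6.46% of all detected genes. The median was 0.00, which was the value of *Mesp1* and *Runx1*, at the floor in all cells.

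The genes whose log2 values followed a member most closely were sought among 9988 genes outside the ETS family that were detected in at least 4 cells and were not at the floor in all 8. For *Etv2* these were *Smim15* (r = 0.978), *Ddx42* (r = 0.977) and *Acvr1* (r = 0.936), a type I receptor for BMP, over 8 cells. All 3 were at the floor in WT cell 2 and KO cells 1 to 3, and high in the others. For *Ets1* they were *Clasp1* (r = 0.996), *Ppat* (r = 0.991) and *Slc20a2* (r = 0.991), each at the floor where *Ets1* was. *Elk3* was followed by *Uqcr11* (r = 0.971), *Tufm* (r = 0.964) and *Ilf2* (r = 0.961). *Lypd5* (r = 0.974) was closest to *Fli1*, and *Gm1305* (r = 0.960) and *Tnfrsf13b* (r = 0.937) to *Ets2*. The remaining closest names had no gene symbol. With 8 cells and this many genes, a high r is a description of these cells only, and genes with r of at least 0.9 made up 0.0601% of those searched for *Etv2* and 0.791% for *Ets1*.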

How the data were processed

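The cDNA of single cells was amplified from the poly(A) tail, transcribed, labelled with Cy3 and hybridised, 1 cell per array. The authors deposited intensity values, which were the processed signals of Agilent Feature Extraction 12.0.2.2, background-subtracted and not normalized between arrays, on array design 028005 with probes annotated on mm9. After control and outlier spots had been removed and repeat spots averaged, 55295 of 55681 probes remained. No probe was saturated. The arrays were scaled to a common 50th percentile, taken over 7570 probes that all arrays detected, before a floor of 50 was applied and values were put on a log2 scale. Python 3.11.15, pandas 2.3.3 and, for the normexp alternative, limma 3.58.1 were used. The scripts were tested on simulated data with less spread between cells than most genes detected here in at least 4 cells. That test covers the computation and not the precision of these single-cell values. Names came from mouse RefSeq accessions (28125 probes, GRCm38.p6, for names only) and otherwise from the file. A gene is given by its probe with the highest mean. No p-value is given, since each genotype counts as 1 sample, and the number of arrays limits the precision. Alternatives changed the detection call, scaling, floor, background correction, probe and cells.

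The members and lists were chosen with earlier results of these data known. All 9 members were named with every probe. From other lists, genes detected in all 8 cells or in none and the 3 with the largest difference between genotype means were named. For a member above the floor in at least 3 cells, the 3 genes outside the family with the highest r were named, among genes detected in at least 4 cells and not at the floor in all 8. Marker lists were counted, and further genes were named after their values were seen. Some genes that this rule names are not reported here.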

Additional observations from a re-analysis of the deposited data

Results flagged for a closer look

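In 4 of the 16 genotype groups of member probes with any spread, 1 cell stood apart from the other 3 by a gap that, divided by the whole range of the group, was above Dixon's critical value for 4 values. Chance alone gives this in about 1 in 20 groups of values without ties. In each of the 4 groups at least 2 cells were at the floor, where values have no order, so the 4 of 16 cannot be set against that rate. The groups with a ratio of 1.0 had 3 of 4 cells at the floor, which fixes the ratio at 1.0 whatever the size of the gap. The ratio was 1.0 for *Ets1* in KO cells, where cell 3 was high. It was 1.0 for *Etv6* in WT cells, where cell 1 was high, and 1.0 for the *Elk3* probe A_55_P2018989 in WT cells, where cell 2 was just over the floor. It was 0.902 for the second *Etv2* probe in KO cells, where cell 4 was high.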

How the results depend on the processing

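The members detected per cell depended mostly on the criterion of detection. With a signal positive and significant over background in place of well above it, the means were 5.75 in WT and 6.75 in KO cells for all members, which turned their order, and 4.25 and 5.25 for the lasting ones. With any probe of a gene, they were 5.25 in both genotypes for all members, and 4.25 in WT and 4.50 in KO cells for the lasting ones. Admitting the left-out *Gabpa* probe, an alternative chosen after seeing the data, gave 5.00 in WT and 5.25 in KO cells. This also turned the order of the means. Leaving out 1 cell at a time gave 4.67 to 5.00 in WT and 4.33 to 4.67 in KO cells for all members, 3.67 to 4.00 and 3.33 to 4.00 for the lasting ones, 3 to 4 WT and 2 to 3 KO cells with *Etv2*, and -1.98 to 0.77 for *Elk3*. The *Elk3* difference was above 0 in 7 settings, 0.26 with a floor of 10 or with none among them. *Etv2* stayed between -4.61 and -3.46 over the scalings, floors and probes, and *Fli1* between 0.65 and 1.23. Of 156 values of single members, 149 moved by less than the SD between cells, and the 7 others were of *Erg*, *Elf1* and *Gabpa*, at or near background. The 156 include values with 1 cell left out, which cannot move the difference by more than this SD. They also include values fixed by the floor, so the count of 149 does not measure how stable the results are. No paired analysis was possible because no test was made and no label ties a cell number to an embryo. Signal over background limits *Erg*, *Elf1*, *Gabpa*, *Etv6* and the 5′ *Ets1* probe.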
